A study of Homo sapiens with 4 samples.

Results

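The 9 transcription factor genes that are used to place a cell on the squamous or epithelial lineage and described here were chosen by name: TP63, KLF3, KLF4, KLF5, KLF6, TFAP2A, TFAP2C, GRHL2 and PAX9. All 9 are listed among the 55764 gene names of the FPKM table. FPKM is the number of sequenced fragments per kilobase of gene, scaled to the size of each library. The libraries came from TE5, a human oesophageal squamous cell carcinoma line, grown in bulk culture. The 2 control libraries came from cells carrying the empty vector backbone, and the 2 ETS1 libraries from cells stably overexpressing human ETS1 from a lentiviral CMV vector after selection. The labels call the control genotype WT and do not say whether a clone or a pool was used, or whether the libraries numbered 1 and 2 are separate cultures, so p-values measure only the spread between these libraries. Recovered reads per library ran from 40356722 to 57269982, with both ETS1 libraries deeper than both controls. ETS1 itself stood at 0.491 and 0.509 FPKM in the controls and at 1.84 and 1.87 FPKM in the ETS1 libraries, a ratio of 3.71.

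In squamous epithelium such as the oesophageal lining, TP63 keeps the basal layer and turns on basal keratins, while KLF4 and KLF5, zinc finger factors that bind GC-rich and CACCC sites, act in the suprabasal and the proliferating layers. The AP-2 factors TFAP2A and TFAP2C work beside TP63 in the epidermis, GRHL2 holds up cadherin and tight junction genes in many epithelia, and PAX9 is a paired-box factor of the foregut lining and the oesophageal mucosa. KLF3 is a repressor that recruits CtBP proteins, and KLF6 is a widely expressed relative. Loss of such factors is often described beside epithelial-mesenchymal transition (EMT), which the title of the study names.

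The panel split into 7 genes that were clearly transcribed and 2 that were close to 0. KLF6, KLF5, TFAP2A, KLF3, TFAP2C, KLF4 and PAX9 each averaged 1 FPKM or more across the 4 libraries and were tested. TP63 and GRHL2, which are the members most tied to squamous basal cells and to epithelial junctions, were not. Of the 7 tested members, 5 rose in the ETS1 libraries (limma adjusted p under 0.05 over all 14306 tested genes), none fell, and TFAP2C and PAX9 did not pass. Across all tested genes 59.1% were called, 30.7% higher and 28.4% lower. The median log2 change of the tested members was 0.29, against 0.016 for all tested genes. The 9 genes were picked with earlier results known, so this count is a description of them.

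Promoter sequences are shown for 3 KLF genes that rose together, because KLF and SP proteins bind the GC box, the letters GGGCGG, and these 3 starts differ in it. Each line gives the 250 bases before the RefSeq gene start on GRCh38.p14, in the direction of the gene, with GC boxes on either strand in capitals. These starts do not all match the gene spans given below. By those spans the KLF4 window lies inside KLF4, the KLF6 window partly overlaps KLF6, and the KLF5 window lies just before KLF5. KLF4 (chr9:107489770-107490019, minus strand) held 4 matches, KLF6 (chr10:3785210-3785459, minus strand) 2, and KLF5 (chr13:73054726-73054975, plus strand) 0.
KLF4 promoter: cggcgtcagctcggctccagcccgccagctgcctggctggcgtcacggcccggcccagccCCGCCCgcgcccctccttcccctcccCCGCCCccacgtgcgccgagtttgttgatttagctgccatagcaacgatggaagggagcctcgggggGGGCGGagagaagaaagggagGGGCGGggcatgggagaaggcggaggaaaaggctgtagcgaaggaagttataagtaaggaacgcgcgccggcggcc
KLF6 promoter: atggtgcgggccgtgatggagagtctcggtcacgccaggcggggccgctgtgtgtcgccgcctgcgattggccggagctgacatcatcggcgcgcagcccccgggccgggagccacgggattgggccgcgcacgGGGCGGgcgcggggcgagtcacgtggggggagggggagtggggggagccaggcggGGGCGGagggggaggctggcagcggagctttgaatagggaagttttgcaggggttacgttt
KLF5 promoter: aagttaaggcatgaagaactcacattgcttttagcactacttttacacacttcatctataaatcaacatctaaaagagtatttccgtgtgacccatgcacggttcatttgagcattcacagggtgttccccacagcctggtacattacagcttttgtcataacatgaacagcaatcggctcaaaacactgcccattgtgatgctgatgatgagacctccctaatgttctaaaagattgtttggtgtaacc

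Of the members, 6 had a promoter entry; KLF3, TFAP2C and GRHL2 had none. GC boxes were found in 2 of the 6 windows, and in 42.6% of all 35116 RefSeq windows of that length. The letters CCGGAAG, a strict form of the ETS site searched on both strands, were in 0 of the 6 and in 8.52% of all windows. The shorter letters GGAA, common to ETS sites, were not counted, and they occur in the printed windows on one strand or the other. The AP-2 letters GCCNNNGGC, which can share bases with a GC box but did not do so here, were in 1 of the 6, KLF4, and in 19.8% of all windows. Base composition ran from 40.8% G and C in KLF5 to 72.4% in KLF6, around a median of 58% for all windows. The windows of the rising KLF genes lie on both sides of that median. No match says only that these letters are absent from this window.

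TP63, the factor that marks basal squamous cells, had no read in either control library. In the ETS1 libraries it had 0.0140 and 0.00474 FPKM. These values stand in a ratio of 3 reads to 1, and the exon length of the gene (chromosome 3, 189631416 to 189897279, plus strand, GENCODE 29 on GRCh38) scales them to 6 and 2 reads. A count of 0 allows up to 3 reads, or 0.00996 and 0.00911 FPKM in the controls, which is more than the second ETS1 library showed, so no fold is given. TP63 RNA was at or near the limit of detection in both groups.

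GRHL2 (chromosome 8, 101492432 to 101669726, plus strand) was listed at 0 and 0.00374 FPKM in the controls and at 0.0173 and 0.00583 FPKM in the ETS1 libraries, from 0, 1, 6 and 2 reads. The summed reads, 8 against 1, gave a ratio of 5.94 with an exact 95% interval of 0.796 to 263, which covers counting error only. A difference was not detectable at this depth. In libraries of this depth, both genes were lower than every other member by a wide margin.

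**Figure D1:**
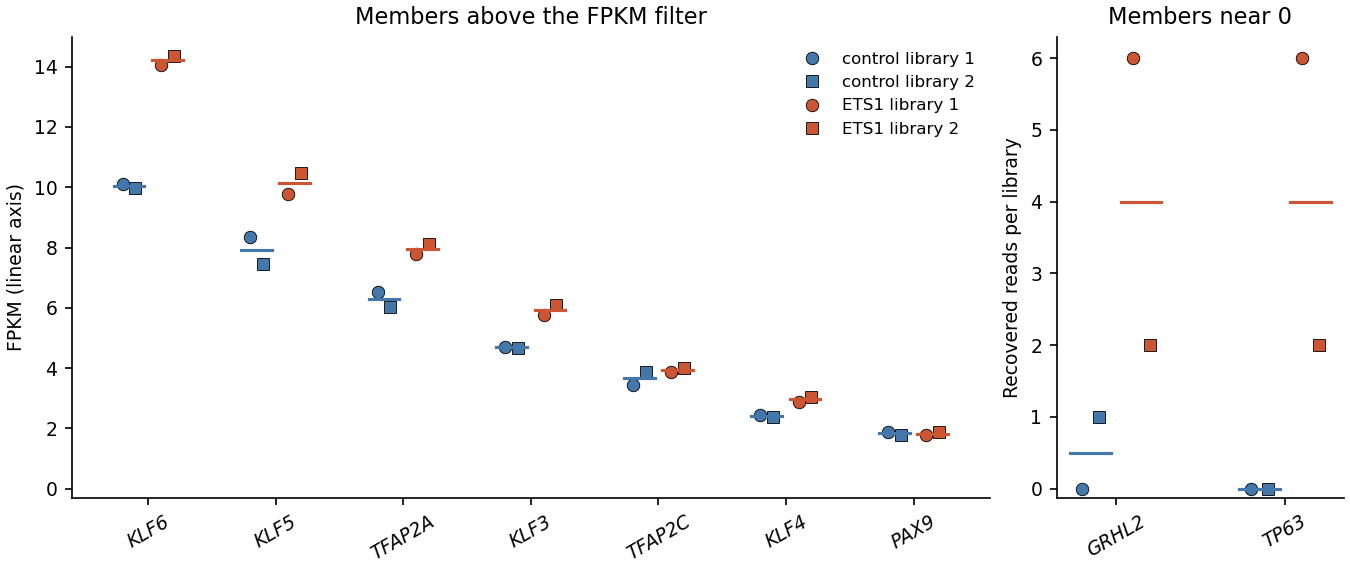
FPKM of the 7 tested members (left, linear axis) and recovered reads of GRHL2 and TP63 (right) in each library; points are libraries and bars are group means. KLF6 in the ETS1 libraries sits at 14.1 and 14.4 FPKM, above 10.1 and 9.96 in the controls, while TP63 has 0 reads in both controls and 6 and 2 in the ETS1 libraries.

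Among the 7 transcribed members the order of levels was the same in both groups. It ran KLF6, KLF5, TFAP2A, KLF3, TFAP2C, KLF4, PAX9 on the FPKM scale, from 10.03 down to 1.83 FPKM in the control means. In each group the libraries of each gene lay wholly above those of the next gene in this order, and only GRHL2 and TP63 overlapped. The median control level of all tested genes was 6.13 FPKM, so KLF6, KLF5 and TFAP2A stood above it and the other 4 below. KLF6 was at percentile 64.2 of the tested genes and PAX9 at percentile 16.2.

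KLF6 (chromosome 10, 3775996 to 3785281, minus strand), a zinc finger factor induced early in injury and growth responses, had the highest level of the panel. Its change was the largest among the tested members. It had 10.1 and 9.96 FPKM in the controls and 14.1 and 14.4 FPKM in the ETS1 libraries. Both ETS1 values lay well above both controls, and the replicates lay close together. The group means were 10.03 ± 0.0964 and 14.2 ± 0.208 FPKM (SD, n = 2 each). The FPKM ratio was 1.42, and the change on the log2(FPKM + 1) scale was 0.46 (SE 0.031, limma adjusted p 0.000711.) Among the genes called higher, its change stood at percentile 79.9. It passed under all 13 alternatives, with a range of 0.45 to 0.50, and the 50 nearest tested genes on chromosome 10 had a median change of 0.057.

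KLF5 (chromosome 13, 73054976 to 73077542, plus strand), a factor of proliferating epithelial cells, had 8.35 and 7.46 FPKM in the controls and 9.78 and 10.5 FPKM in the ETS1 libraries. The groups did not overlap, but the controls were spread. The group means were 7.90 ± 0.631 and 10.1 ± 0.501 FPKM (SD, n = 2 each). The change was 0.32 (SE 0.063, limma adjusted p 0.0105). With no filter on low FPKM the adjusted p was 0.0585, so the call was lost. The 50 nearest tested genes on chromosome 13 had a median change of 0.21, with a change below 0 in 13 of the 50. Relative to them KLF5 changed by 0.12, and the part of the region in the result was not tested.

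KLF3 (chromosome 4, 38664196 to 38701042, plus strand), the CtBP-recruiting repressor, had 4.71 and 4.67 FPKM in the controls and 5.77 and 6.10 FPKM in the ETS1 libraries. Its controls nearly coincided (4.69 ± 0.0302 FPKM, SD, n = 2), and both ETS1 values were higher (5.94 ± 0.239 FPKM). The change was 0.29 (SE 0.042, limma adjusted p 0.00439), and it passed under all 13 alternatives. Neighbouring genes on chromosome 4 had a median change of 0.12, which left 0.17 for KLF3. KLF3-AS1, on the other strand, shares 4.22% of the exonic bases of KLF3.

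KLF4 (chromosome 9, 107484852 to 107490482, minus strand), a factor of differentiating suprabasal cells, was the lowest of the 4 KLF members. It had 2.44 and 2.37 FPKM in the controls and 2.87 and 3.05 FPKM in the ETS1 libraries, from 349 to 611 reads. The groups did not overlap (2.40 ± 0.0476 and 2.96 ± 0.123 FPKM, SD, n = 2 each), and the change was 0.22 (SE 0.049, limma adjusted p 0.0166). This was the weakest of the 5 calls. Its adjusted p was 0.0575 with no filter, 0.0543 without control replicate 2 and 0.102 without ETS1 replicate 2, and the authors' deposited table gives 0.0678 for a log2 fold change of 0.24. It passed under 8 of 12 alternatives. Neighbouring genes on chromosome 9 had a median of -0.043.

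TFAP2A (chromosome 6, 10393186 to 10419659, minus strand), the AP-2 alpha gene, had 6.53 and 6.02 FPKM in the controls and 7.79 and 8.12 FPKM in the ETS1 libraries. Both ETS1 values were above both controls, with means of 6.27 ± 0.363 and 7.95 ± 0.234 FPKM (SD, n = 2 each). The change was 0.30 (SE 0.049, limma adjusted p 0.00611), and it passed under all 13 alternatives. After subtraction of the median of its neighbours on chromosome 6 it was 0.20. The antisense gene TFAP2A-AS1, named after its values were seen, shares 5.29% of the exonic bases of TFAP2A and was at 1.84 and 1.78 FPKM in the controls and at 2.39 and 2.88 FPKM in the ETS1 libraries. TFAP2A-AS2 shares a further 11.4% of them. Since the use of strand is not given, reads from these bases cannot be told apart.

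TFAP2C (chromosome 20, 56629302 to 56639283, plus strand), the AP-2 gamma gene, did not pass. It had 3.45 and 3.86 FPKM in the controls and 3.86 and 4.00 FPKM in the ETS1 libraries, so the groups overlapped. Its control SD, 8.11% of the mean, was the largest of the tested members. The change was 0.084 with a 95% interval of -0.068 to 0.24 and a limma adjusted p of 0.267, and 0 of 12 alternatives passed. A change of the size of TFAP2A's (0.30) lies outside that interval, but the difference between the paralogs was not tested.

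PAX9 (chromosome 14, 36657568 to 36679715, plus strand) had 1.89 and 1.77 FPKM in the controls and 1.76 and 1.87 FPKM in the ETS1 libraries. The libraries of the groups were interleaved, with means of 1.83 ± 0.085 and 1.82 ± 0.0789 FPKM (SD, n = 2 each). The change was -0.0069 with a 95% interval of -0.16 to 0.14 (limma adjusted p 0.926), and 0 of 12 alternatives passed. SLC25A21, on the other strand, shares 7.97% of the exonic bases of PAX9 and was at 1.46 to 1.67 FPKM, a neighbour named after its values were seen. Reads from the shared bases cannot be told apart.

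**Figure D2:**
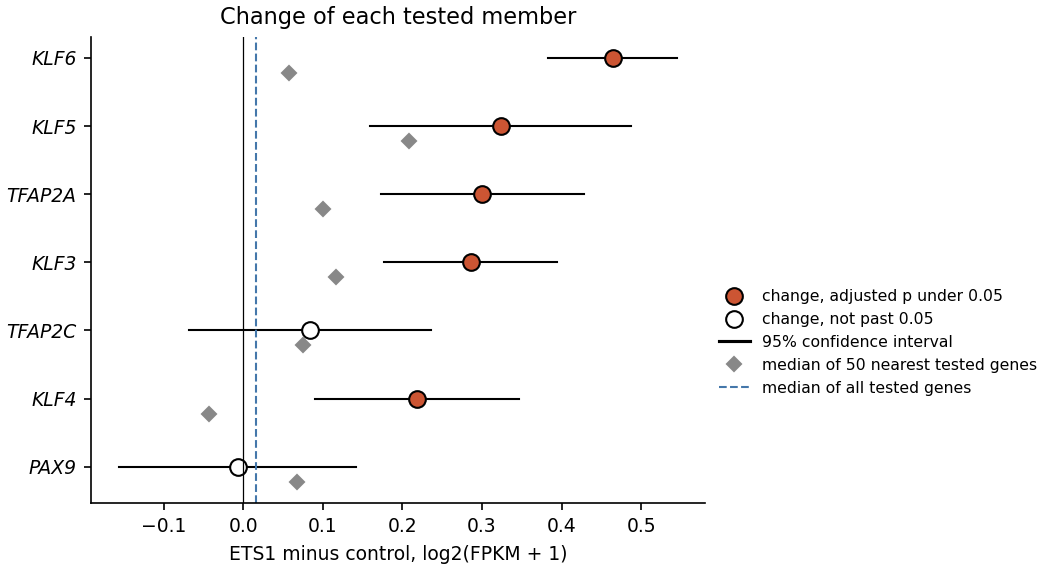
Change of each tested member between ETS1 and control on the log2(FPKM + 1) scale, with its 95% confidence interval, beside the median of its 50 nearest tested genes (diamonds) and of all tested genes (dashed line). KLF6 (0.46) lies far from its neighbours (0.057), while KLF5 (0.32) lies closer to the median of its neighbours (0.21).

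The authors' deposited table calls 4 of the 7 members higher and 0 lower, KLF4 being the exception, where it calls 51.2% of its genes with an adjusted p in either direction and 25.3% higher. In the authors' deposited table the log2 fold changes were 0.47 for KLF6, 0.32 for KLF5, 0.31 for TFAP2A and 0.30 for KLF3. TFAP2C and PAX9 had adjusted p-values of 0.616 and 0.846 in the authors' deposited table. The groups of 5 of the 7 tested members did not overlap, all 5 with the ETS1 libraries above. Of all tested genes, 82% had groups that did not overlap, and in 43.1% of all tested genes the ETS1 libraries lay above. Counting error alone was 1.41% to 5.35% of the value of a tested member in a library, and 40.8% to 100% for TP63 and GRHL2 where they had reads. In bulk libraries, more cells that express a gene and more RNA per cell cannot be told apart.

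**Figure D3:**
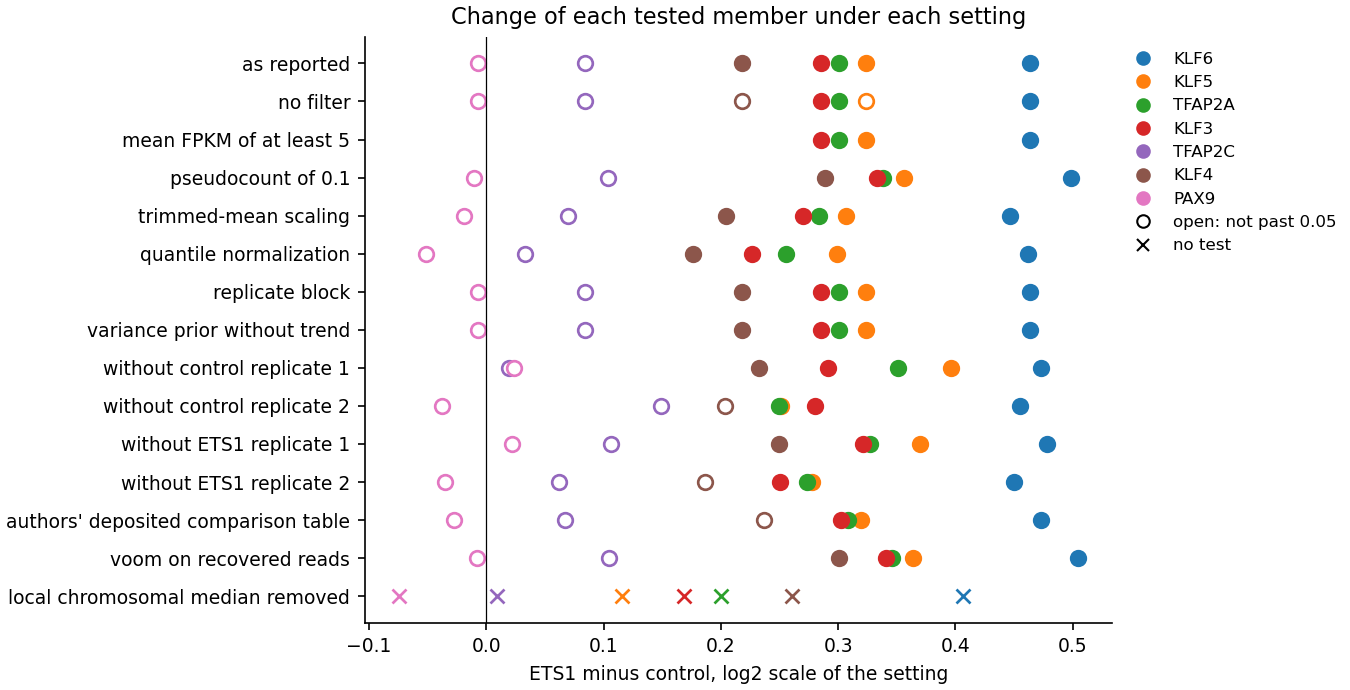
Log2 change of each tested member as reported and under each alternative; filled points passed an adjusted p of 0.05, open points did not, and crosses have no test. KLF6 stays at 0.45 to 0.50 in all tested settings, KLF4 is open in 4 of them, and the local chromosomal median moves KLF5 most, to 0.12.

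The wider KLF and SP family, whose proteins share a C-terminal zinc finger domain, was compared next. Of 26 genes, 18 reached the filter, and 10 rose and 3 fell, with a median log2 change of 0.25. The 4 KLF members are counted in this list and are among the 10 that rose. The share called higher was 55.6%, against 30.7% higher and 28.4% lower over all tested genes. The 3 that fell were KLF15 and, named after their values were seen, KLF13 (-0.12) and KLF16 (-0.17). Only 1 was called lower with no filter, with a filter of 5 FPKM, with the replicate block and without control replicate 1 or either ETS1 replicate. The 4 KLF members together made up 31.8% to 33.7% of the summed FPKM of the 17 KLF genes in each library. KLF10, a factor induced by TGF-beta, rose most, from 6.54 and 6.50 FPKM to 16.4 and 17.7 FPKM (log2 change 1.26, limma adjusted p 0.000428). KLF15, a metabolic regulator, fell from 6.75 and 6.44 FPKM to 3.28 and 3.14 FPKM (-0.85). KLF12 rose by 0.50 and SP1, the most abundant family gene at 16.5 and 16.2 FPKM in the controls, rose by 0.28. By point estimate, 3 family genes outside the panel moved by more than any tested member, 1 of them downward. These differences were not tested, and KLF12 (0.50) lay close to KLF6 (0.46). The genes of all lists with levels most like those of KLF6 over the 4 libraries were KLF9, TWIST1 and FGFR3, at Euclidean distances of 0.27, 0.32 and 0.36 on the log2(FPKM + 1) scale among 193 candidates.

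**Figure D4:**
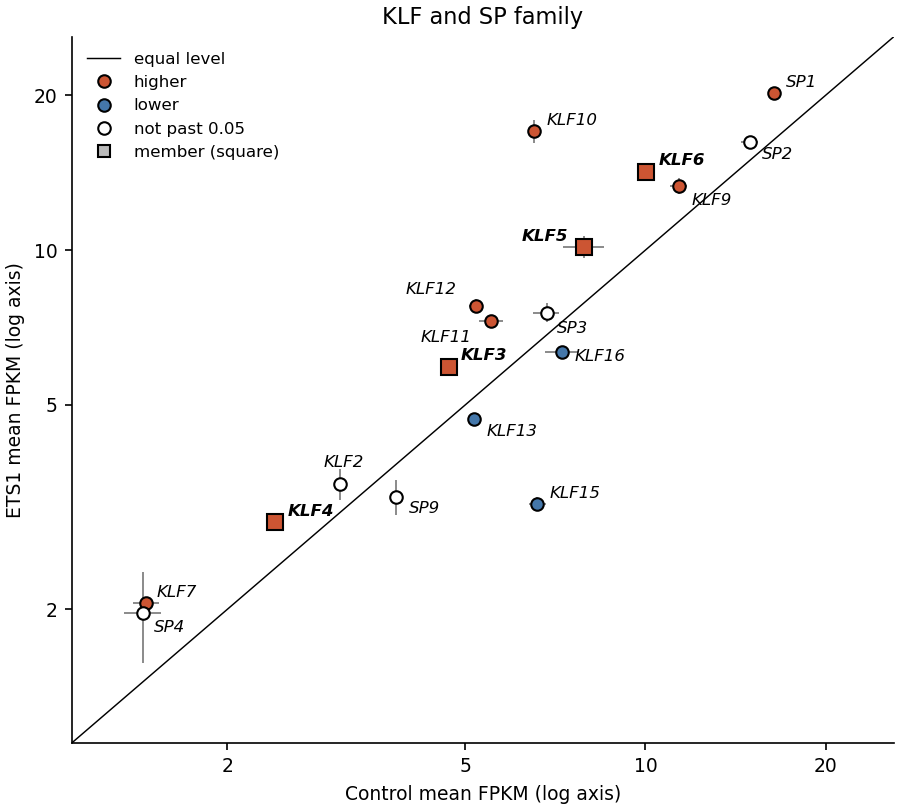
Mean FPKM of the 18 tested KLF and SP genes in the ETS1 libraries against the controls, on log axes, with SD (n = 2 each); squares are the members. KLF3, KLF4, KLF5 and KLF6 lie above the line of equal level, KLF10 farther above it, and KLF15 below it.

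In the other families the members stood in different places. TFAP2A and TFAP2C made up 92.3% to 92.7% of the summed AP-2 FPKM in the controls and 94.9% to 95.6% in the ETS1 libraries. PAX9 made up 13.6% to 14.9% of the PAX family, below PAX3, a neural crest and muscle factor at 5.48 to 5.84 FPKM, and PAX6, an eye and endocrine factor at 3.66 to 3.91 FPKM. The TP63 paralog TP73 had 3.84 and 4.05 FPKM in the controls and 4.70 and 4.83 FPKM in the ETS1 libraries (log2 change 0.22, limma adjusted p 0.0106). TP73 lost the threshold without ETS1 replicate 2 (adjusted p 0.0672). Of the Grainyhead family, GRHL1, the paralog active in the upper epidermis, was near 1 FPKM in every library (0.979 to 1.02). The related UBP1 rose by 0.10, a call lost under 9 of 13 alternatives.

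Lists of genes that these factors are known to control were compared next. Of 12 GRHL2 target genes, only EPCAM reached the filter, and it was not called here but was called lower under trimmed-mean scaling, quantile normalization, voom on recovered reads and a variance prior without trend. Genes under the filter were not tested, and the authors' deposited table calls 2 of them higher. These are ESRP2, an epithelial splicing regulator (0.307 and 0.309 against 1.33 and 1.22 FPKM, controls first), with a log2 fold change of 1.99 in the authors' deposited table, and CDH1, E-cadherin (0.571 and 0.567 against 1.08 and 0.916 FPKM), with 0.71 in the authors' deposited table. CLDN4, a tight junction claudin also under the filter, went the other way, at 0.706 and 0.588 FPKM in the controls against 0.338 and 0.301 FPKM. With no filter, ESRP2 was called higher and CLDN4 lower. These 3 genes were named after their values were seen. Of 15 p63 target genes 6 reached it, with 2 higher and 2 lower. The authors' deposited table calls 6 higher and 2 lower, the further 4 (ITGB4, JAG1, S100A2 and SFN, named after their values were seen) lying under the filter. The count of lower calls was 1 with no filter, with the replicate block and without control replicate 2 or either ETS1 replicate, and the count of higher calls was 1 without control replicate 1 or ETS1 replicate 2. PERP, a desmosome-associated p63 target, went from 38.4 and 35.8 FPKM to 45.4 and 45.3 FPKM (0.28, limma adjusted p 0.00400), and the Notch ligand gene JAG2 fell from 9.90 and 10.1 to 8.01 and 7.99 FPKM (-0.29). Of 10 KLF target genes 6 were tested, with 2 higher and 2 lower (1 lower with no filter and without control replicate 2 or either ETS1 replicate). CDKN1A, the cell cycle inhibitor p21, rose by 0.42 and LGALS3, galectin 3, by 0.46, while CCND1, cyclin D1, fell from 7.10 and 7.32 FPKM to 3.81 and 3.74 FPKM (-0.78, limma adjusted p 0.000482). Calls went both ways in the p63 and the KLF target lists, as they did over all tested genes. In each of the 2 lists 33.3% of the tested genes were called higher. Over all tested genes 30.7% were called higher and 28.4% lower.

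Cofactors and ubiquitin ligases of the KLF and AP-2 proteins were all transcribed. All 14 listed genes were tested, and 4 rose and 2 fell, with a median of 0.079. CITED2, an AP-2 coactivator, rose from 11.3 and 10.2 FPKM to 19.9 and 21.7 FPKM (0.89, limma adjusted p 0.000830). Its relative CITED1 fell from 15.3 and 14.5 FPKM to 6.32 and 6.91 FPKM (-1.06, limma adjusted p 0.000486). WWP1, a ubiquitin ligase that targets KLF5, rose from 4.72 and 4.44 FPKM to 6.01 and 6.59 FPKM (0.39). Each of these calls held under all 13 alternatives.

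The labelled squamous cell type was checked against its markers. Of 15 basal squamous markers, 11 were under 0.1 FPKM in every library, and KRT5, KRT14, KRT6A, KRT6B and KRT17 were listed at 0 in both controls. The summed level of the list was 20.2 to 20.7 FPKM in the controls and 24.5 to 24.6 FPKM in the ETS1 libraries, of which the desmocollin gene DSC3 gave 17.4 to 21.5 FPKM. DSC3 rose by 0.27, and NGFR, a receptor of basal cells and of neural crest, fell by 0.54, a call lost with no filter (adjusted p 0.0607). Of 17 suprabasal markers, 13 were under 0.1 FPKM in every library, among them KRT4, SPRR3 and CRNN. The 3 tested suprabasal markers fell. KRT10, keratin 10, stood at 19.2 and 18.5 FPKM in the controls and fell by 0.23, CNFN, cornifelin, stood at 15.2 and 15.5 FPKM and fell by 0.41, and TGM1, a transglutaminase, stood at 2.02 and 1.91 FPKM and fell by 0.36. CNFN lost the threshold with no filter (adjusted p 0.0530). Most markers of both lists were thus under 0.1 FPKM. TP63 and the basal keratins KRT5 and KRT14 were at or near 0, which goes against the squamous label. Among the exceptions, DSC3, KRT10 and CNFN were well above the median gene. The identity of the cells was not tested.

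Other squamous transcription factors were partly present. Of 15 genes 7 were tested, and 4 rose and 1 fell, with a median of 0.25. The 1 that fell was RUNX3 (-0.15, limma adjusted p 0.0412), named after its values were seen. No gene of the list was called lower with no filter, with the replicate block, in the authors' deposited table and without control replicate 2 or either ETS1 replicate, and 2 were without control replicate 1. SOX2, an oesophageal stem cell factor named after its values were seen, was at 2.72 and 3.13 FPKM in the controls and at 3.52 and 3.82 FPKM in the ETS1 libraries (0.25, limma adjusted p 0.0301, lost under 6 of 12 alternatives). BARX2 rose from 2.01 and 1.99 FPKM to 3.49 and 3.68 FPKM (0.61), and MAF, a factor of epidermal differentiation among other roles, rose from 6.16 and 6.23 FPKM to 10.0 and 10.7 FPKM (0.66, limma adjusted p 0.000644). ZNF750 and OVOL1, which act late in squamous differentiation, were under 0.1 FPKM in every library.

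Factors of columnar and glandular epithelium were present as well. Of 14 genes 8 were tested, and 0 rose and 3 fell, with a median of -0.10. GATA6, a foregut factor (4.31 and 3.96 against 4.61 and 4.76 FPKM, limma adjusted p 0.0552), was called higher without control replicate 1 and with voom on recovered reads. With a filter of 5 FPKM, where fewer genes were tested, 1 factor was called lower. GATA4, a foregut and heart factor, fell from 8.80 and 9.38 FPKM to 5.99 and 5.81 FPKM (-0.55, limma adjusted p 0.000978), and FOXA1 fell by 0.34 and PDX1 by 0.46. CDX2, the intestinal factor, was at 8.66 and 8.80 FPKM in the controls, above KLF5, and at 8.05 and 8.15 FPKM in the ETS1 libraries (limma adjusted p 0.0531, past the threshold under trimmed-mean scaling and quantile normalization). All 4 listed epithelial ETS relatives, ELF3, ELF5, EHF and SPDEF, were under the filter. Of 12 simple epithelial markers 4 were tested; KRT8 rose by 0.62 and its partner KRT18 fell by 0.29.

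Markers of other cell types were compared for the same reason. All 5 tested genes of 6 mesenchymal markers rose, of which CDH2, N-cadherin (0.14, limma adjusted p 0.0429), passed under 6 of 13 alternatives and was lost with no filter, trimmed-mean scaling, the replicate block, a variance prior without trend, and without control replicate 2 or either ETS1 replicate. Of the 5, SPARC and TNC, named after their values were seen, reached the filter only through the ETS1 libraries. SPARC was at 0.313 and 0.258 FPKM in the controls against 2.68 and 2.64 FPKM. TNC was at 0.830 and 0.903 FPKM in the controls against 5.05 and 5.07 FPKM. The count of 5 is therefore not independent of the filter. The list summed to 258.7 to 262.7 FPKM in the controls and 345.4 to 345.9 FPKM in the ETS1 libraries, of which VIM (vimentin) gave 238.7 to 315.5 FPKM. Of 7 EMT transcription factors 6 were tested, with 3 higher and 0 lower, and the list summed to 22.6 to 24.5 FPKM in the controls and 49.2 to 51.7 FPKM in the ETS1 libraries. SNAI2, a repressor of E-cadherin, rose from 4.86 and 4.54 FPKM to 26.9 and 28.4 FPKM (2.33, limma adjusted p 0.000207), under all 13 alternatives. The count of higher calls was 5 with voom, 2 with no filter or without either ETS1 replicate, and 1 with a filter of 5 FPKM. In the fibroblast list 1 of 8 genes reached the filter and 5 were under 0.1 FPKM in every library, with sums of 2.20 to 2.36 FPKM against 3.17 to 3.28 FPKM. The blood list had 1 of 6 genes tested and sums of 1.2 to 1.41 FPKM against 2.68 to 2.75 FPKM, with PTPRC, the common leukocyte marker, under 0.1 FPKM in every library. All 3 endothelial genes listed were under 0.1 FPKM. These sums rose beside the members, and their part in the members' changes was not tested.

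**Figure D5:**
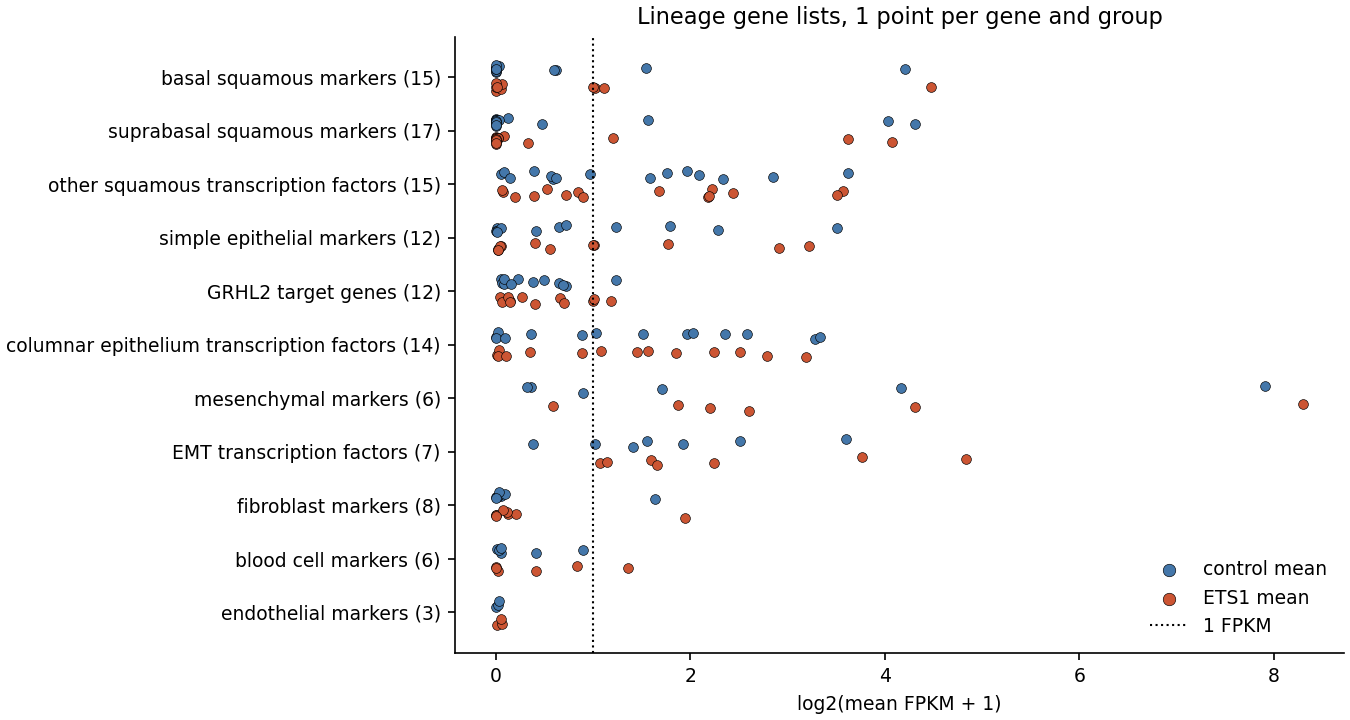
Mean level of each listed gene in the control (upper points) and ETS1 (lower points) libraries, as log2(mean FPKM + 1), by list with its number of genes; the dotted line marks 1 FPKM. Most basal and suprabasal squamous markers sit at 0, while factors of the columnar list and VIM lie to the right of the line.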

How the data were processed

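The authors deposited FPKM values (fragments per kilobase, scaled by library) for every gene name in 2 control and 2 ETS1 libraries, per the file headers. The submitters name HISAT2, HTSeq, DESeq2 and GRCh38 (hg38) in their processing notes, with no versions. Annotation and strand use are not given in the sources used here. The authors' second deposited table compares 16652 genes by a mean normalized count (a signal over the libraries), a log2 fold change with its error, a p-value and an adjusted p-value.

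Here limma 3.58.1 in R 4.3.3 was fitted to log2(FPKM + 1), with a group term and an intensity trend, for genes averaging 1 FPKM or more. The tests have 2 sides, and p-values were adjusted by Benjamini-Hochberg across 14306 genes, with a threshold of 0.05. With 2 libraries a group an exact permutation test cannot go below 0.333. On simulated data the limma step recovered all large and most small changes, and the share of its calls that were false was above the nominal level.

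Reads were recovered from ratios of FPKM between libraries and the deposited mean normalized counts; for genes averaging under 100 counts, 99.3% of values fell within 0.05 of a whole number. Elsewhere the exon length in GENCODE 29 set the scale. Positions are from GENCODE 29 (GRCh38), promoters from RefSeq (GRCh38.p14).

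The members and gene lists were chosen with earlier results of these data known. Named genes are ETS1, the members and, per list, up to 4 genes with the highest control FPKM, up to 3 with the largest absolute change among those with a control mean of at least 1 FPKM, and genes under 0.1 FPKM in all libraries; others are said to be named after their values were seen. Alternatives were no filter, a mean of 5 FPKM or more, a pseudocount of 0.1, quantile normalization, trimmed-mean scaling, a block for replicate number, a variance prior without trend, the authors' deposited comparison, voom on recovered reads, each library left out, and removal of the median change of the 50 nearest tested genes.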

Additional observations from a re-analysis of the deposited data

How the results depend on the processing

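KLF3, KLF6 and TFAP2A kept their direction and their side of the threshold under all 13 alternatives with a test, and TFAP2C and PAX9 passed under none of their 12. The number of members called higher was 5 and moved to 3 with no filter, where 35055 genes share the adjustment and KLF4 and KLF5 did not pass. It was 4 to 5 when 1 library was left out. The number of genes called higher, 4394, moved to 2562 at a mean FPKM of at least 5, where fewer genes were tested, and ran from 2845 to 3962 when 1 library was left out. The change of PAX9 ran from -0.0375 to 0.024 when 1 library was left out and turned positive without control replicate 1 (0.024) and without ETS1 replicate 1 (0.022). With the replicate number as a block, the members called higher stayed at 5 and the genes called higher were 3712. The labels do not say that a number marks a shared culture or batch, and the correlation of the deviations of same-numbered libraries was -0.046. The numbers were not used to pair libraries, and whether they mark anything shared was not tested. Trimmed-mean scaling and quantile normalization moved the median of all genes by less than 0.1. The alternatives for the listed genes outside the panel were chosen after seeing the data. Among the gene lists, the cofactors called higher were 7 with voom against 4, the columnar factors called lower 5 under quantile normalization against 3, and the basal markers called higher 3 in the authors' deposited table against 1. At a mean FPKM of at least 5, where fewer genes were tested, the mesenchymal markers called higher were 2 against 5. Depth limits TP63 and GRHL2, whose reads per library were between 0 and 6.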
